A study of Mus musculus with 16 samples.

Results

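The milk protein genes examined here are the 7 mouse genes Lalba, Csn1s1, Csn2, Csn1s2a, Csn1s2b, Csn3 and Wap, taken by name from 21631 protein-coding genes annotated on the 19 autosomes and X. H3K27me3, the histone mark written by the Polycomb enzyme EZH2, was mapped by chromatin immunoprecipitation and sequencing, and each library was deposited as a list of peaks. A gene was counted as marked when a peak overlapped its body, extended by 2 kb on each side, by at least 1 base. The dnTCF4 group held 4 libraries of CCN6KOT cells carrying a lentivirus with dnTCF4, a dominant negative construct against beta-catenin signalling. The control group held 4 libraries of the same cells carrying a control lentivirus, named PPGS in the labels. CCN6KOT is a mouse breast tumour line labelled as spindle metaplastic and, by its name and the design text, lacks CCN6, so both groups share that loss and the selection with puromycin. All libraries come from this 1 line, and whether the 4 of a group stem from separate cultures is not stated, so a p-value reflects library-to-library spread only, which may be technical. The other 8 of the 16 samples are IgG libraries and were not analysed here. Peak lists hold no expression values, so the labelled cell type could not be set against marker expression.

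Milk proteins are made by the secretory alveolar cells of the mammary gland. Lalba encodes alpha-lactalbumin, the subunit that turns a galactosyltransferase into lactose synthase. Csn1s1, Csn2, Csn1s2a and Csn1s2b encode the calcium-sensitive caseins, Csn3 encodes kappa-casein, which stabilises the casein micelle, and Wap encodes whey acidic protein, a major whey protein of rodent milk. Prolactin acting through STAT5 drives these genes in pregnancy and lactation. H3K27me3 is known as a mark of silenced genes of other lineages or stages, and it often spreads as a broad domain.

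Promoters are shown because, in most libraries, peaks were called over or on both sides of that of Lalba, and in no library near the others. RefSeq promoter windows (build GRCm38.p6, the same assembly as mm10), from 250 bases before the transcription start to 50 bases after it, were matched for 5 of the 7 genes, namely Lalba, Csn1s1, Csn2, Csn1s2a and Wap. The windows printed are those of Lalba (chr15:98482634-98482933, minus strand), of Csn2 (chr5:87699376-87699675, minus strand) as the member of the casein cluster, and of Wap (chr11:6638600-6638899, minus strand), each 5′ to 3′ with CpG dinucleotides in capitals.
Lalba: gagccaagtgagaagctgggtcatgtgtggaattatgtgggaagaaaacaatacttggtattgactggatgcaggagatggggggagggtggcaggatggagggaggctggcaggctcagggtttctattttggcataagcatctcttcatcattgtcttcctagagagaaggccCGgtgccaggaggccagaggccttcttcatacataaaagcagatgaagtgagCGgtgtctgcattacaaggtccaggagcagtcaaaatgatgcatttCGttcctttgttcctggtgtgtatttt
Csn2: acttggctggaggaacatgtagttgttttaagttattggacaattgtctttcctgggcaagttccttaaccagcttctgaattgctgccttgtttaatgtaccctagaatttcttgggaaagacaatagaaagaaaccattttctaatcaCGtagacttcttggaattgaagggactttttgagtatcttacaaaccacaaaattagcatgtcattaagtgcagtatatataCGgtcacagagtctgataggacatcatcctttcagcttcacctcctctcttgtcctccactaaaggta
Wap: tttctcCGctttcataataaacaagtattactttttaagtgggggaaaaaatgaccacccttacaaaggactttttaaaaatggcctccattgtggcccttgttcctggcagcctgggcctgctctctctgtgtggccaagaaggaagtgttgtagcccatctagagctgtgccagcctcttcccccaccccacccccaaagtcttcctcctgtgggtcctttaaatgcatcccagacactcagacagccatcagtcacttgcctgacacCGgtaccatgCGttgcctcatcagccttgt
All 5 windows were poor in CpG. Lalba and Wap held 3 CpG each, Csn2 held 2, and Csn1s1 and Csn1s2a held 0, where the median over 17274 protein-coding genes with a window was 14 (quartiles 4 and 24). A CpG count of 3 or fewer was found in 24.2% of those windows. The windows of Lalba, a gene with peaks, and Wap, a gene without, were alike in this measure, and in GC content as well, with 49% and 50.3%, against 38.7% for Csn2, 35.3% for Csn1s1 and 32.3% for Csn1s2a. Over all genes with a window, those with no peak in any library had a median of 15 CpG and those with a peak in at least 1 library a median of 8. Genes with a peak in at least 4 libraries had a median of 10. These peaks may lie anywhere in the gene body or its 2 kb flanks. The medians therefore do not show whether peaks lay on CpG-poor promoters. The letters TTCNNNGAA, the palindrome that STAT5 binds, which reads the same on both strands and was the 1 motif searched, occurred once in Csn1s1 (TTCTTAGAA, first base at -100 from the transcription start), once in Csn2 (TTCTTGGAA, at -93) and once in Csn1s2a (TTCTTAGAA, 20 bases after the start). The Lalba and Wap windows held no match, and 7.92% of all windows held one.

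**Figure D1:**
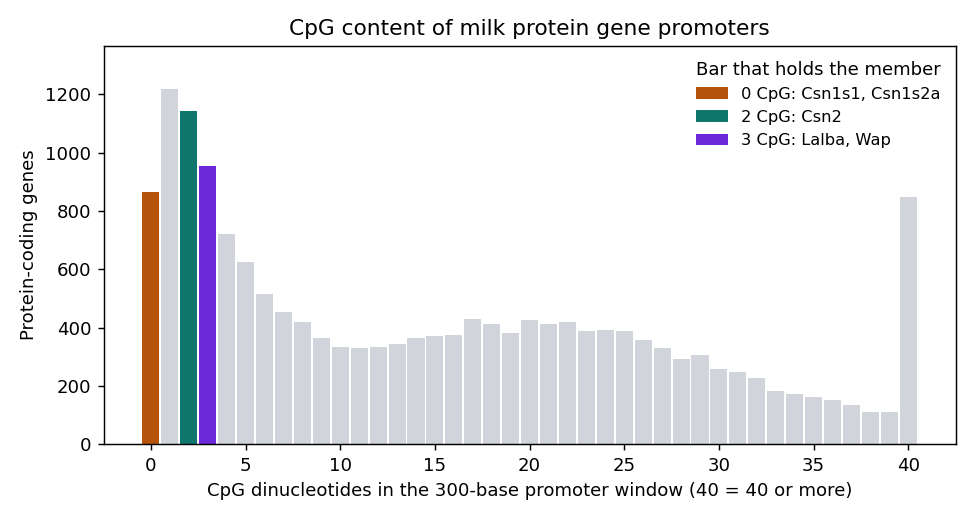
Number of protein-coding genes (vertical axis) by CpG dinucleotides in the 300-base promoter window (horizontal axis; the last bar holds windows with 40 or more), with the bars that hold milk protein genes coloured. The 5 members with a window lie at 0, 2 and 3 CpG, below the median of 14.

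Lalba was the marked milk protein gene, and the other 6 members had no peak in any of the 8 libraries. Lalba (gene ID 16770, chromosome 15, 98480400 to 98482934, minus strand) carried peaks in 4 of 4 dnTCF4 and 3 of 4 control libraries. Peaks covered 100%, 2.66%, 39.1% and 39.5% of Lalba and its 2 kb flanks in dnTCF4 1 to 4, against 14.6%, 0%, 100% and 58.5% in control 1 to 4. Each group held 1 library with the whole window covered and 1 with almost none or none of it, so the groups overlapped over nearly their full range. Of the 7 members, 1 was marked in every library but control 2, where none was. The share of all protein-coding genes marked by the same rule was 13.7%, 0.254%, 5.13% and 2.41% in dnTCF4 1 to 4 and 0.675%, 1.06%, 20.1% and 12.5% in control 1 to 4. A peak in at least 1 library was found for 1 of 7 members (14.3%) and for 21.4% of all genes, so the number of marked members lay near that of genes at large.

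Lalba was called in nearly every library. It was 1 of 85 genes (0.393%) with a peak in at least 7 libraries, and its window had a mean covered share of 44.3% over the 8 libraries, which only Mmp7 (81.5%) and Mmp8 (59.4%) exceeded among all genes. These counts describe a gene chosen with earlier results of these data known, and its short window is easier to cover than that of a long gene. Chromosome 15 as a whole was often marked. Of its 776 protein-coding genes, 27.6%, 1.8%, 18.4% and 11.3% had a peak in dnTCF4 1 to 4 and 5.67%, 5.93%, 31.2% and 26.4% in control 1 to 4, and 26 (3.35%) had one in at least 7 libraries. The part of the chromosome in the regularity of Lalba was not tested.

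Peak calls at Lalba took 2 forms, which need not reflect 2 states of the mark. In dnTCF4 1 and control 3 a single peak ran across the whole gene, 9282 bases wide in dnTCF4 1 (98476802 to 98486083) and 10609 bases wide in control 3 (98476354 to 98486962). These were among the broadest peaks of their lists, where 13 of 21492 and 52 of 54070 peaks were at least as wide. In dnTCF4 3, dnTCF4 4 and control 4 the same stretch was split, with a peak just before the transcription start, another inside the gene and, in dnTCF4 3 and control 4, further peaks after it. The upstream peak ran from 98482946 to 98484316 in dnTCF4 3, from 98483020 to 98484282 in dnTCF4 4 and from 98483018 to 98484516 in control 4. The peak in the gene body ran from 98481176 to 98482163 in dnTCF4 3, from 98480842 to 98482161 in dnTCF4 4 and from 98480855 to 98482063 in control 4. Downstream, dnTCF4 3 had peaks from 98480013 to 98480208 and from 98477424 to 98478377, and control 4 from 98480013 to 98480185 and from 98476902 to 98479343, the last being its widest at Lalba with 2442 bases. Short lists held fragments of the upstream and body peaks: dnTCF4 2 had 1 upstream peak of 174 bases, and control 1 had an upstream peak of 226 bases and a body peak of 725 bases.

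The promoter window printed above lay between the upstream and body peaks. It is placed at a transcription start (98482683) that lies 251 bases inside the outermost annotated end of the gene (98482934), so the window falls within the gene body as given above. It was covered to 100% in dnTCF4 1 and control 3 and to 0% in the other 6 libraries. In dnTCF4 2, 3 and 4 the nearest upstream peak began 396, 263 and 337 bases before that transcription start, against 1279 and 335 bases in control 1 and control 4. From the outermost end of the gene the same peaks began 145, 12 and 86 bases away in dnTCF4 2, 3 and 4, against 1028 and 84 bases in control 1 and control 4. On the other side, the body peak began 520 and 522 bases after the transcription start in dnTCF4 3 and dnTCF4 4, against 750 and 620 bases in control 1 and control 4. In bins of 100 bases, counted where peaks covered more than 50 of them, 4 dnTCF4 and 2 control libraries had a peak from 400 to 600 bases upstream, and 3 of each group had one from 800 to 1500 bases downstream, whereas 2 had one at every bin from 300 bases upstream to 500 bases downstream.

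**Figure D2:**
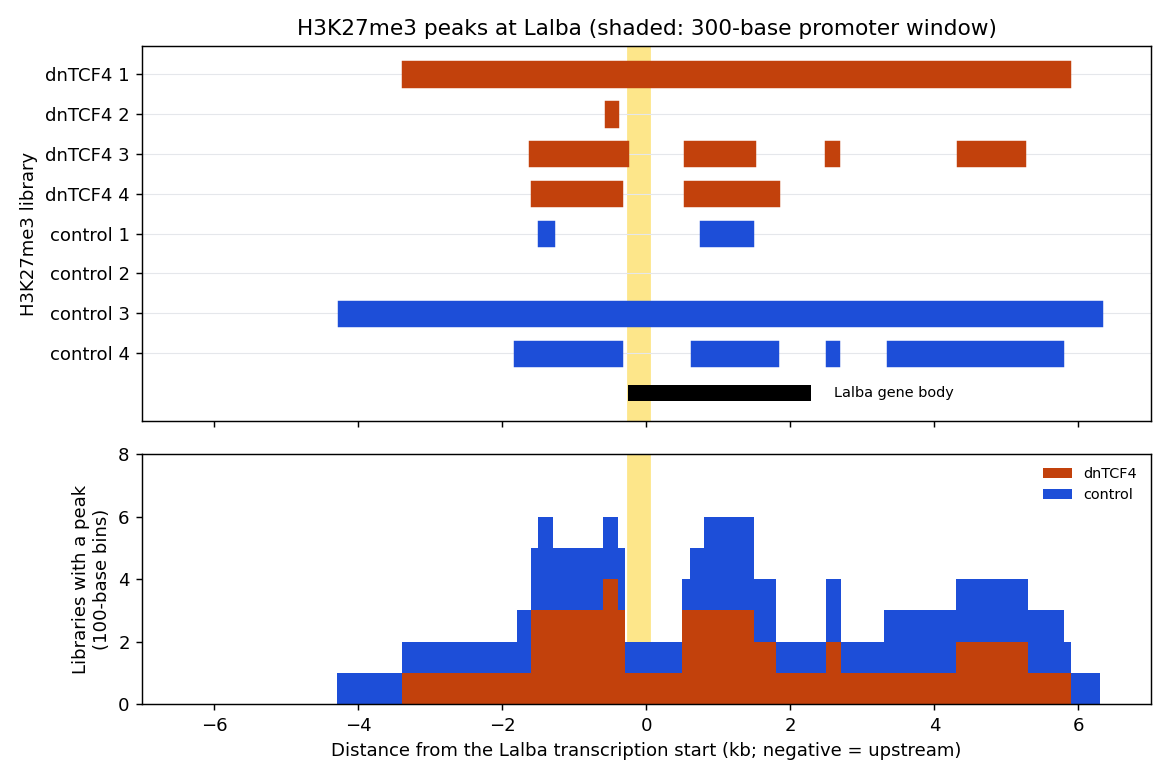
Upper panel: H3K27me3 peaks (bars) of each library by distance from the Lalba transcription start in kb, with the gene body in black and the 300-base promoter window shaded. Lower panel: number of dnTCF4 and control libraries with a peak in each 100-base bin, which reaches 6 on both sides of the promoter and is 2 within it.

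Peak strength at Lalba ranged within the lists, by −log10 q, from the top 2.83% in dnTCF4 1 to the lowest place in dnTCF4 2. The authors' fold enrichment of the strongest Lalba peak was 4.50, 4.50, 4.63 and 5.03 in dnTCF4 1 to 4 and 4.92, 3.25 and 3.64 in control 1, 3 and 4. These are the authors' values per peak and serve to place a peak within its own list. A −log10 q at least as high as that of the best Lalba peak was held by 2.83%, 100%, 6.10% and 23.5% of the peaks in dnTCF4 1 to 4 and by 27.2%, 3.79% and 4.83% in control 1, 3 and 4. In dnTCF4 2 the Lalba peak was thus the weakest of 191 by this measure, with a −log10 q of 1.02.

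The comparison of dnTCF4 with control cells asks whether blocking beta-catenin and TCF activity alters H3K27me3. At Lalba it showed no difference beyond the spread of libraries. Covered share averaged 45.3 ± 40.3% in dnTCF4 and 43.3 ± 45.3% in control libraries (SD, n = 4 each), a difference of 2.05 percentage points (two-sided exact permutation p = 0.943, adjusted p = 1 over 21631 genes by the Benjamini-Hochberg method). Without dnTCF4 1, control 1 or control 2 the difference turned to -16.2, -7.52 or -12.4 percentage points. By presence of a peak, 4 of 4 against 3 of 4, Fisher's exact test gave p = 1. The 70 assignments of 8 libraries allow no p under 0.0286, and with this spread a large change was not detectable. Over all genes 0 passed the permutation test after adjustment (0% called). None could have passed, because only 4626 of the 21631 genes had any peak and p has this floor. The count of 0 is therefore no evidence that the groups were alike. At an unadjusted p under 0.05, 1 gene (0.00462%) was lower in dnTCF4 and 0 were higher, and Fisher's exact test gave 0 genes.

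Coverage of Lalba moved with the length of the peak list. The lists held 21492, 191, 4885 and 1838 peaks in dnTCF4 1 to 4 and 426, 738, 54070 and 22745 in control 1 to 4, and sequencing depth is unknown. The 3 longest lists covered 58.5% to 100% of the window, dnTCF4 3 and dnTCF4 4 covered 39.1% and 39.5%, and the 3 shortest covered 0% to 14.6%. The lists of most similar length from opposite groups, dnTCF4 1 and control 4, covered 100% and 58.5%. Control 2, with 738 peaks, missed Lalba, while the shorter lists dnTCF4 2 and control 1 did not. The part of list length in these values was not tested.

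**Figure D3:**
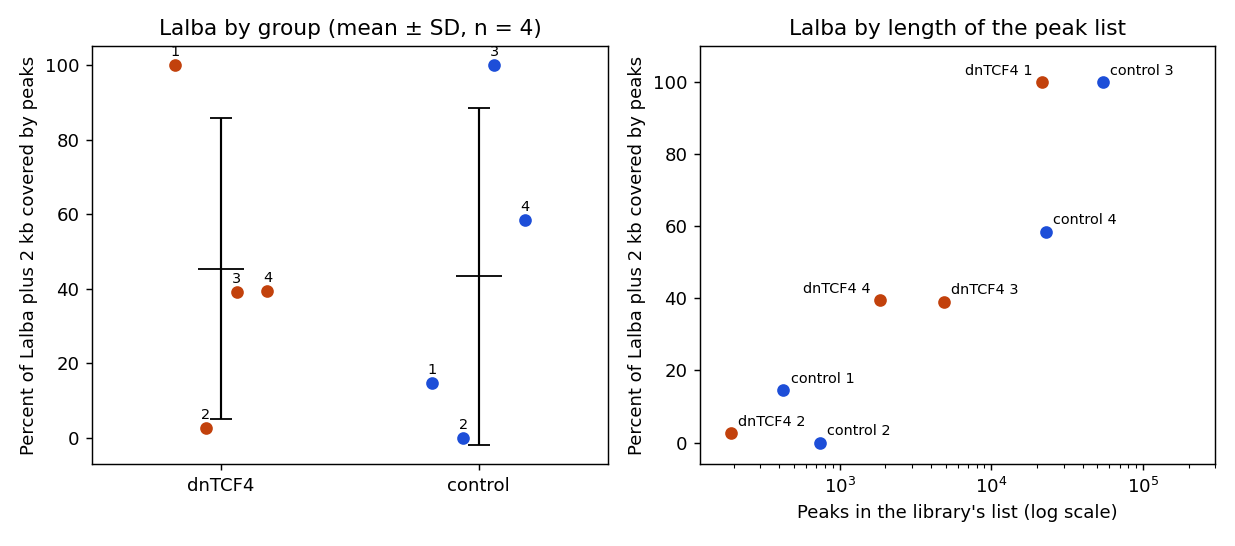
Left: percent of Lalba plus 2 kb covered by peaks in each library (points, numbered by replicate), with mean and SD of the 4 libraries of each group. Right: the same values against the number of peaks in the list (log scale), from 0% in control 2 to 100% in dnTCF4 1 and control 3.

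Peaks were also called around Lalba, between olfactory receptor genes and pseudogenes but over none of their bodies. Within 50 kb on each side of Lalba (98430400 to 98532934), dnTCF4 1 to 4 had 10, 1, 7 and 4 peaks, against 2, 1, 15 and 16 in control 1 to 4. These peaks covered 13.6%, 0.170%, 4.46% and 3.11% of the region in dnTCF4 1 to 4 and 0.927%, 0.285%, 25.6% and 13.3% in control 1 to 4. The means were 5.33 ± 5.79% in dnTCF4 and 10.0 ± 12.0% in control libraries (SD, n = 4 each; difference -4.70 percentage points, two-sided exact permutation p = 0.629, adjusted p = 1 over the same window of 21631 genes). The groups overlapped, and without control 3 the difference turned to 0.505 percentage points.

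Merging peaks of all libraries gave 19 stretches in the region, and the merged one over Lalba was marked in the most libraries, 7. The next was a stretch of 2653 bases that begins 8.49 kb upstream of the Lalba transcription start (98491178 to 98493830), marked in 3 dnTCF4 and 3 control libraries. The lead of Lalba depends on the merging. Its stretch of 10609 bases has the bounds of the single control 3 peak, which joins the non-overlapping peaks of dnTCF4 2 and control 1. In the bins used above, no bin at Lalba held a peak in more than 6 libraries. A bin of the upstream stretch also reached 6. All 18 stretches other than that over Lalba overlapped no annotated gene. The stretch of 2653 bases was the 1 stretch of the region called in control 2. A stretch 8.62 to 9.95 kb downstream of the start (98472733 to 98474067), near the pseudogene Olfr240-ps1, was marked in 3 dnTCF4 and 2 control libraries, and one 19.7 to 24.9 kb downstream, near the olfactory receptor gene Olfr281, in 2 of each. On the upstream side the last peak of any library ended 22.9 kb from the transcription start. Kansl2, which encodes a subunit of a chromatin-modifying complex and lies at the upstream edge of the region, had no peak. Further downstream, Olfr282 had a peak within 2 kb of its body in 0 dnTCF4 and 1 control library. Covered share with 2 kb flanks was below that of Lalba at every annotated neighbour in the 7 libraries that marked Lalba. The highest was that of Olfr280-ps1, whose flank reaches into the Lalba peaks, with 29.6% in dnTCF4 1 and 46.7% in control 3.

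**Figure D4:**
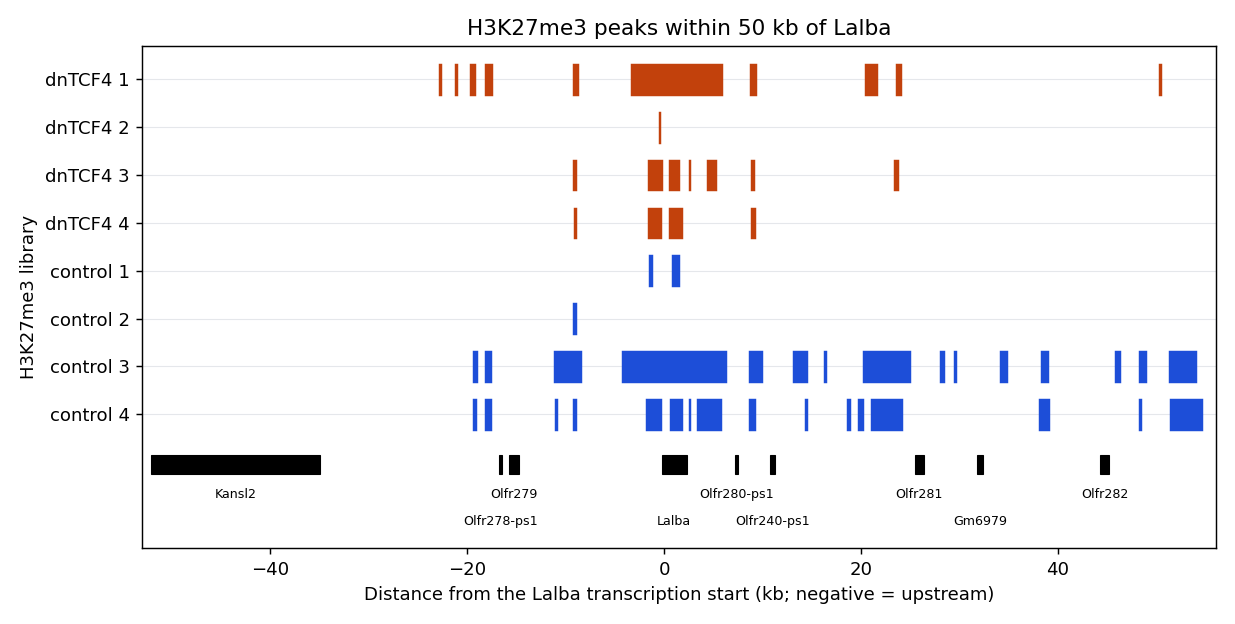
H3K27me3 peaks of each library (coloured bars) by distance from the Lalba transcription start in kb, with protein-coding genes and pseudogenes in black below. Peaks recur at Lalba in 7 libraries and about 9 kb to either side of it, and none lies at Kansl2.

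The casein cluster carried no called H3K27me3. Csn1s1 (chromosome 5, 87666208 to 87682578), Csn2 (87692619 to 87699429), Csn1s2a (87774450 to 87788798), Csn1s2b (87808121 to 87824421) and Csn3 (87925579 to 87932550) had 0 peaks in 4 dnTCF4 and 0 in 4 control libraries, bodies and 2 kb flanks included. The whole span of 266343 bases from Csn1s1 to Csn3 held 0 peaks in every library, so that Prr27, Odam and BC037156, the other protein-coding genes inside it, were unmarked as well. The covered share was 0% in both groups (difference 0, exact permutation p = 1). With 0% in every library this p was fixed in advance and tests nothing. Cutting the chromosomes into 9870 tiles of the same length gave 4735 (48%) without a peak in any library, and 39% of the 569 tiles of chromosome 5. Of the 7312 tiles that hold a protein-coding gene, as the span does, 37.8% had no peak in any library. An empty stretch of this size was thus common. In control 3, the longest list, 49.2% of all tiles and 39.2% of those with a protein-coding gene were empty.

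Because the span held no peak, the empty stretch around it had to be larger than the cluster in every list. In the 3 longest lists the empty stretch measured 955 kb in dnTCF4 1, against 751 kb in control 3 and 1657 kb in control 4. How common empty stretches of these sizes are elsewhere was not measured. The nearest peak before the cluster lay 20.7 kb from Csn1s1 in control 3 (87645325 to 87645492) and 91.2 kb away in dnTCF4 1, where it was 1.01 kb from the sulfotransferase gene Sult1e1. After the cluster, the first peak lay 597 kb from Csn3 in dnTCF4 1, against 464 kb in control 3 and 591 kb in control 4. These 3 libraries shared peaks near Jchain, the gene of the immunoglobulin joining chain. The other 5 lists had no peak within 700 kb of the cluster. A list records only what passed the caller's threshold, so the absence of a peak is not evidence that the mark itself was absent.

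**Figure D5:**
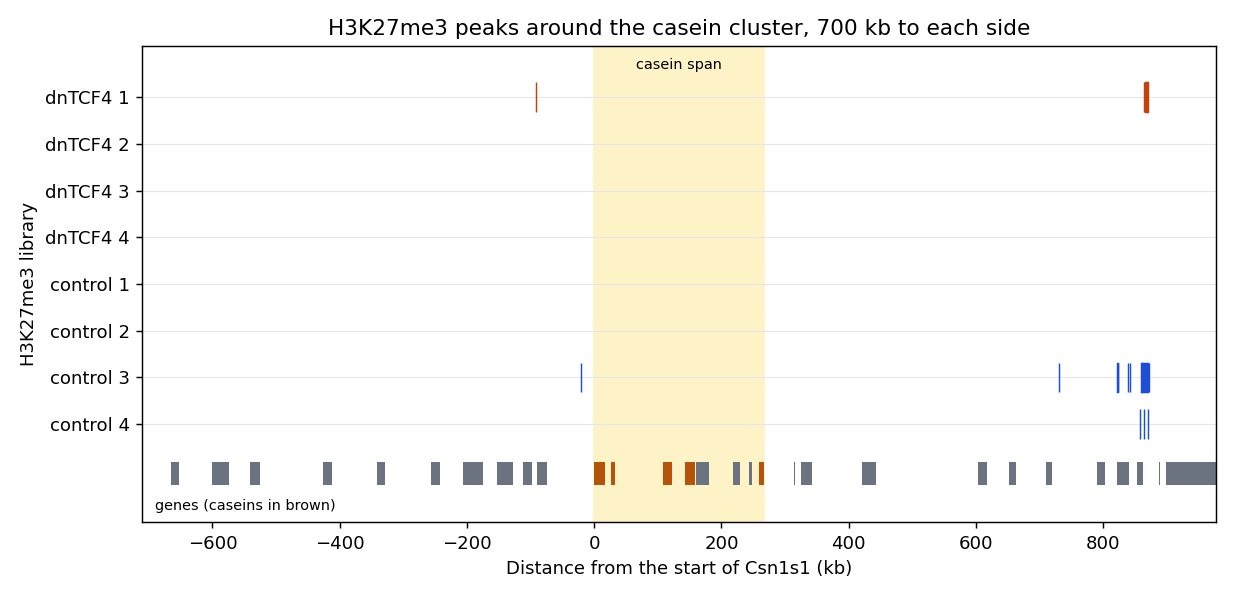
H3K27me3 peaks of each library by distance from the start of Csn1s1 in kb, with the casein span shaded and protein-coding genes drawn below (caseins in brown). No library has a peak in the 266 kb span, and peaks to its right begin 464 kb away in control 3.

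Wap (chromosome 11, 6635483 to 6638654) was also unmarked in 4 dnTCF4 and 4 control libraries. The nearest peak lay 106, 88950, 552 and 1024 kb away in dnTCF4 1 to 4 and 588, 553, 104 and 106 kb away in control 1 to 4. In the 3 longest lists this was the same place, 65.3 to 66.8 kb from Ramp3. Having no peak within 50 kb in any library was common, as 42.8% of all genes had none.

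Other genes of lactation were marked in some libraries, from lists of 24 regulators, 22 genes of milk fat and lactose and 13 other milk proteins. Of the regulators, 7 of 24 had a peak in at least 1 library (29.2%), of the fat and lactose genes 8 of 22 (36.4%) and of the other milk proteins 5 of 13 (38.5%), beside 21.4% of all genes. Control 3, the longest list, by itself marked 6 regulators, 8 fat and lactose genes and 5 other milk proteins. It also marked 4344 of the 4626 genes with a peak in any library. In dnTCF4 2 and control 1, 0 genes of these lists were marked. The median difference in covered share was 0 percentage points in each list and over all genes. Without adjustment, 0 genes of any list passed the permutation test in either direction, and with adjustment no gene could pass. Among regulators, Ehf, an epithelial ETS factor, was marked in 3 dnTCF4 and 3 control libraries with mean covered shares of 14.1% and 22.8%. Elf5, the ETS factor that directs alveolar differentiation, was marked in 2 of each (2.13% and 7.35%). Prlr, the prolactin receptor gene on chromosome 15, was marked in 2 dnTCF4 and 3 control libraries, but over only 0.942% and 2.70% of its long window. Tnfrsf11a, the receptor RANK, was marked in 3 dnTCF4 and 2 control libraries, Gata3 in 1 and 2, Esr1 in 1 and 0 and Stat5b in 0 and 1. Stat5a and Jak2 had no peak.

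Of the genes of milk fat and lactose, Cidea, a lipid droplet protein, and Slc34a2, a phosphate transporter, were each marked in 3 dnTCF4 and 2 control libraries. Gpam, an enzyme of triglyceride synthesis, was marked in 2 dnTCF4 and 3 control libraries, the fatty acid receptor gene Cd36 in 1 and 3, Lpl in 0 and 2, Slc30a2 in 1 and 1, and Atp2b2 and Plin2 in 0 and 1. B4galt1, whose enzyme is the partner of alpha-lactalbumin in lactose synthase, had no peak. Of the other milk proteins, Pigr was marked in 2 of each group, Ltf, which encodes lactoferrin, in 2 dnTCF4 and 1 control library, and Glycam1, Lao1 and Wfdc18 in 0 and 1. Each listed gene marked in 0 dnTCF4 and 1 control library was marked in control 3. Of the 59 listed genes, 0 had a peak in at least 7 libraries, and Ehf came closest to Lalba with 6. Over all 21631 genes the share with a peak in at least 7 libraries was 0.393%, so the count of 0 lay near that of genes at large.

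The genes whose covered shares over the 8 libraries were most like those of Lalba, by Euclidean distance in percentage points, were 2410137M14Rik (51.5), Ndufb4c (53.5), Hoxc13 (53.9), Defb26 (54.0), Gjc1 (55.3), Hoxc4 (55.5), Hoxc9 (55.7), Krt1 (56.5), Hoxc8 (59.7) and Prdm12 (66.4). Of these 10, 6 lie on chromosome 15, and the libraries share their list lengths. The nearest, 2410137M14Rik, was covered to 67.7%, 0%, 40.4% and 2.51% in dnTCF4 1 to 4 and to 0%, 0%, 96.5% and 60.2% in control 1 to 4. Lalba differed from it mainly in dnTCF4 4, with 39.5%, and in dnTCF4 1, with 100%. All 10 were uncovered in dnTCF4 2, where Lalba had its 1 short peak.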

How the data were processed

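Per the submitters' processing notes, MACS2 2.1.2 was among the tools, after trimming (cutadapt, Trim Galore), alignment to mm10 (Bowtie2 2.3.4.1) and handling with bedtools 2.28.0, SAMtools 1.2 and Picard 2.20.2. The settings used and any role of IgG in peak calling were not given in the sources used here. Each deposited list has no header and 9 columns, and peak names carry the library's name, so the authors called peaks per library. The deposited columns hold a score, a fold enrichment ratio, a −log10 p and a −log10 q per peak. No deposited −log10 q was below 1.01. No read counts are given, so depth is unknown.

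Gene positions and promoters came from RefSeq (GRCm38.p6). Covered bases were counted per window, and group means were compared by a two-sided exact permutation test over 70 assignments, run for all 21631 genes or, for the casein span, for it and 9870 tiles of its length up to the last annotated gene of each chromosome, with Benjamini-Hochberg adjustment. The counting of covered bases was tested on random intervals (Python 3.11.15, numpy 2.4.6, pandas 2.3.3, SciPy 1.17.1). The permutation test was tested on these libraries' covered shares, shuffled within each gene, with a shift added to some genes. That shift exceeded the range of the measure, so the check does not show what size of change could be detected. Promoter statistics used 1 window per gene. The members and lists were chosen with earlier results of these data known. Genes named are the members, the annotated genes near Lalba and in the casein span, the 10 most like Lalba, and up to 8 genes marked in the most libraries of each other list. Stat5a, Jak2 and B4galt1, named as unmarked, and Mmp7, Mmp8, Sult1e1, Jchain and Ramp3 were added after their values were seen.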

Additional observations from a re-analysis of the deposited data

Results flagged for a closer look

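In control 1, Lalba with its 2 kb flanks held 0.393% of the covered length of the list, far above the other control libraries, which held 0%, 0.0124% and 0.0235% in control 2, 3 and 4. The dnTCF4 libraries held 0.0393%, 0.135%, 0.0866% and 0.300%. The list of control 1 holds 426 peaks, 2 of them at Lalba. Chance marks about 1 in 20 groups in this way.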

How the results depend on the processing

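The number of marked milk protein genes (1 of 7), the empty casein span and the count of 0 genes with an adjusted difference were the same under all alternatives run (13, 12 and 14). The alternatives for the span only dropped or reused peaks, so an empty span had to stay empty. The adjusted count was held at 0 by the smallest p that so few libraries allow. Neither agreement is therefore a test of robustness. For the count of marked members, leaving out any 1 library had to give 1, because Lalba had peaks in 7 libraries and the other members none. That count rested on dnTCF4 1 alone with peaks of −log10 q of at least 3. With lists of equal length it rested on dnTCF4 2 and control 1. The difference at Lalba, small against its spread, took either sign: it was -0.199 percentage points with lists of equal length (191 peaks, where dnTCF4 2 and control 1 still held a Lalba peak), -3.64 with 10 kb flanks, and from -16.2 (without dnTCF4 1) to 21.0 (without control 3) when each library was left out, with p from 0.486 to 1 over 15 alternatives. Among these was the restriction to peaks of −log10 q of at least 3, under which Lalba was marked in dnTCF4 1 alone (difference 25). The difference within 50 kb of Lalba turned to 1.62 under that restriction and to 0.0360 as a percent of the list's covered length, and ran from -7.95 to 0.505 when each library was left out, with p from 0.314 to 1 over 12 alternatives. Depth is unknown, and the lists differ in length from 191 to 54070 peaks. With same-numbered libraries as a replicate block, the difference at Lalba of 2.05 had an exact sign-flip p of 0.875 and that within 50 kb of -4.70 a p of 0.625; with 16 sign patterns neither could reach 0.05. Correlations of same-numbered libraries' deviations from their group means over 4626 marked genes were -0.653, 0.654, -0.0388 and -0.477 for numbers 1 to 4. No dnTCF4 library correlated best with its own number, though dnTCF4 2 came close (0.654, against 0.667 with control 1). Because the lists differ so much in length, these correlations cannot decide whether the numbers pair the libraries. The block changed no call.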
